A study of Rattus norvegicus with 12 samples.

Results

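The set described here holds 42 rat genes that act in the G1 phase of the cell cycle and in the copying of DNA during S phase. They were taken from a list of symbols: 3 D-type cyclins, 2 E-type cyclins, the kinases Cdk2, Cdk4 and Cdk6 with the factor E2f1, the genes that mark replication origins, the 6 subunits of the MCM helicase, DNA polymerases and primase, the sliding clamp with its loader, the genes that join and protect new strands, and the enzymes that make DNA building blocks. Each gene is represented by the probe set, a group of short probes for 1 transcript, with the highest mean signal over the 12 arrays. Of the 42 genes, 40 had a probe set of their own, out of 14217 such genes on the array, and 37 of these had a mean signal of at least 215 units and were tested, out of 10261 tested genes. Cdk6, Orc1 and Uhrf1 lay below that limit, with mean signals of 149, 94.4 and 201. No probe set was named for Cdc6. Rrm2 was named only on probe sets that also carry Rrm2l1 and is given no value.

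The cells were primary astrocytes grown from the rat optic nerve head, the place where the axons of the retina gather to leave the eye. In 1 experiment, cultures that received epidermal growth factor (EGF) for 4 h were set against untreated sister cultures, and in the other the treatment lasted 12 h, with its own untreated sister cultures. Strain, age, sex and the dose of EGF are not given in the sources used here, and the titles of the samples gave the group and replicate of each array. The descriptions of all 12 samples, EGF samples included, call them controls, so every direction given here rests on the titles. Each of the 4 groups held 3 arrays, and it is not stated whether these came from separate cultures, so p-values measure the spread between arrays, which may be technical.

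A growth factor such as EGF leads a resting cell towards S phase through the D-type cyclins, which bind Cdk4 and Cdk6, and then through the E-type cyclins, which bind Cdk2. These kinases phosphorylate the retinoblastoma protein, and E2F factors, freed from it, drive many of the genes that make DNA. Origins are licensed in G1, when the origin recognition complex, Cdc6 and Cdt1 load the MCM helicase. In S phase the helicase opens the strands, primase and polymerase alpha begin each new strand, and polymerase delta extends it on the clamp Pcna. Astrocytes divide little in the healthy adult nerve and can re-enter the cycle after injury.

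At 4 h of EGF, 14 of the 37 tested genes were lower than in the controls, against 19.6% of all tested genes. Most genes of the set belong to the replication machinery, and so did most of the lower ones. Ccnd3, Ccne2 and E2f1 were lower as well. The fork polymerases Pola1, Pola2 and Pold1, the clamp loader subunits Rfc2, Rfc3 and Rfc5, the helicase subunits Mcm3 and Mcm4, the single-strand binding subunit Rpa1 and the ribonucleotide reductase subunit Rrm1 fell by 0.60 to 1.67 on the log2 scale. The origin recognition subunit Orc6 rose. At 12 h most of the genes that had fallen were no longer past the threshold, while cyclin D1 (Ccnd1), Orc6, the licensing factor Cdt1, Mcm6 and Rpa2 were higher with EGF. Rrm1 and cyclin D3 (Ccnd3) were lower at both times.

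In numbers, 1 of the 37 tested genes was higher and 14 were lower at 4 h at an adjusted p under 0.05 (limma, Benjamini-Hochberg over 18625 probe sets). In the same comparison 27.8% of all probe sets were called. Taking 1 probe set per gene, 32.4% of all tested genes were called, 12.8% higher and 19.6% lower. The median log2 fold change of the 37 genes was -0.62, against -0.17 over all tested genes, and 32 of the 37 values were negative. When each array was centred on its median, which moves the median of all genes at 4 h to 0.02, the median of the set was -0.43 and 27 of the 37 values were negative. The count was 12 under this centring (2 higher, 10 lower), and the calls of Ccnd3, Ccne2, Mcm4 and Prim1 were lost. Under the same centring 14.29% of all probe sets were called higher and 8.1% lower. Without control replicate 2 at 4 h, 9 of the 37 genes were called (1 higher, 8 lower), against 9.01% of all probe sets higher and 12.5% lower. Here and below, shares under an alternative were counted over all probe sets and not over genes. In the main model the share over probe sets was the lower one (27.8% against 32.4% at 4 h). Each array measures a whole culture, so fewer cells in a phase of the cycle and less RNA per cell cannot be told apart.

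At 12 h, 5 of the 37 genes were higher and 2 lower. In that comparison 36.1% of probe sets and 40.8% of tested genes were called, 16.5% of genes higher and 24.2% lower. The median of the set was 0.21, against -0.09 over all tested genes. Of the 14 genes lower at 4 h, 12 were not called at 12 h, and 0 were called lower at 4 h and higher at 12 h. A total of 19 genes had a negative value at 4 h and a positive one at 12 h.

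**Figure D1:**
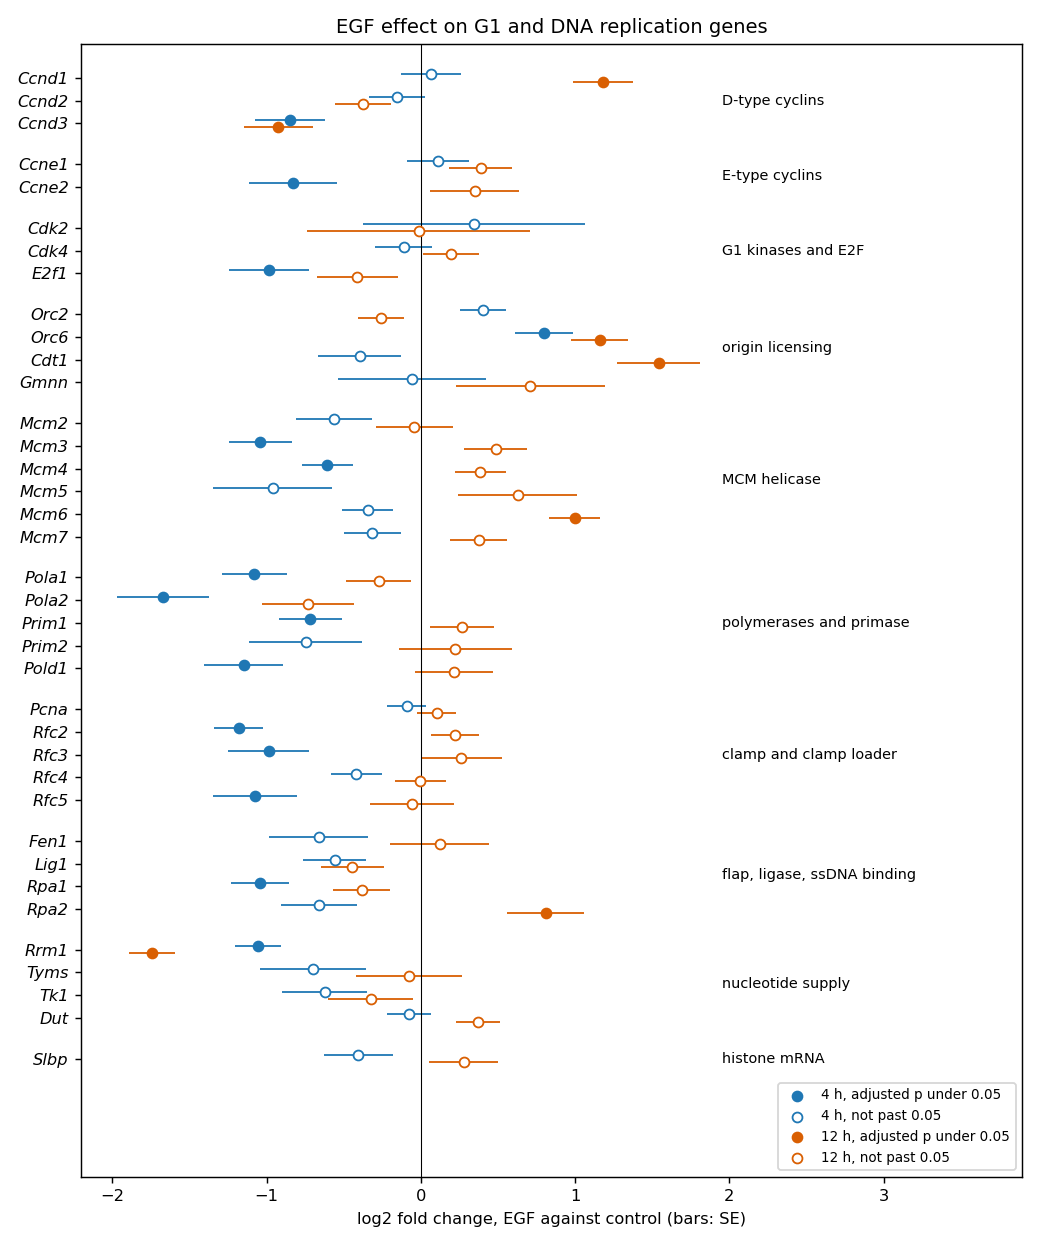
Log2 fold change of EGF against control for the 37 tested genes, grouped by role from cyclins at the top to nucleotide supply and histone mRNA at the bottom, with 4 h in blue, 12 h in orange and bars of 1 standard error. Filled points passed an adjusted p of 0.05: 15 genes at 4 h, of which 14 lie left of the zero line, and 7 at 12 h, of which 5 lie right of it.

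Separation of the single arrays can be counted without a model. At 4 h the 3 EGF arrays lay below all 3 control arrays in 19 of the 37 genes and above them in 2, against 33.3% of all tested genes below and 19.4% above. At 12 h they lay above in 11 and below in 3, against 20.9% of all tested genes above and 31.8% below.

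**Figure D2:**
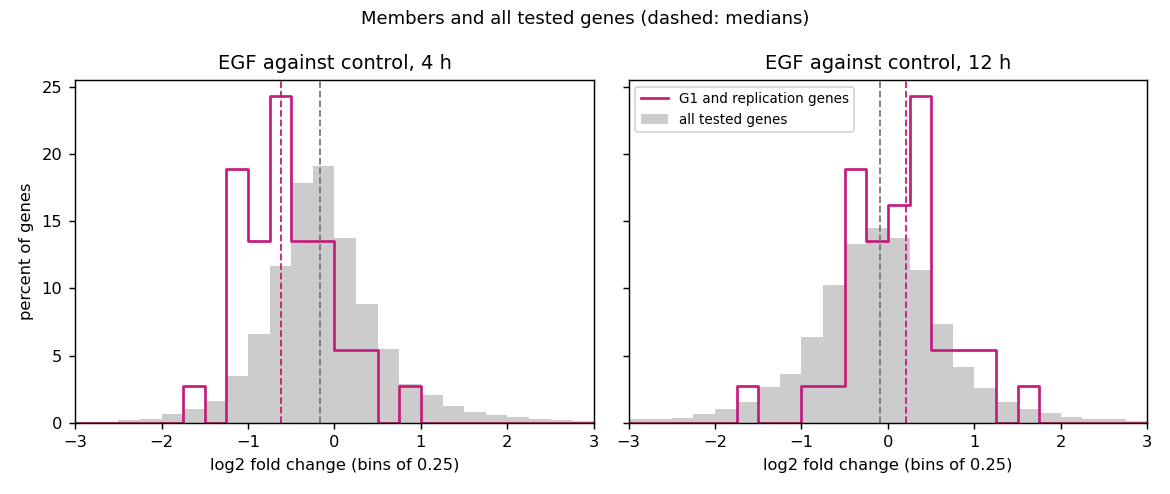
Share of genes in bins of log2 fold change for EGF against control at 4 h (left) and 12 h (right), with the 37 tested G1 and replication genes as a line and all 10261 tested genes as grey bars. Dashed lines mark the medians, which are -0.62 and -0.17 at 4 h and 0.21 and -0.09 at 12 h.

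Sequences before the start of transcription were available for 33 of the 42 genes (RefSeq, build GRCr8), and the 250 bases upstream of the annotated start were searched on both strands for the E2F-type letters TTTCCCGC, TTTCGCGC, TTTGCCGC and TTTGGCGC. At least 1 of these was found in 7 of the 33 windows (21.2%), against 498 of 27457 windows of all genes (1.81%). The 7 genes were Mcm2, Mcm5, Mcm6, Mcm7, Pola1, Tyms and Slbp. Among genes lower at 4 h, 1 of 11 windows held a match, and among tested genes not called at 4 h, 6 of 20. A match is a description of letters and shows no binding. The first pair of windows below belongs to the genes called at a time whose window held a match, chosen after the search, with the letters of all matches, on either strand, in capitals. The other 4 belong to the gene with the largest rise and the largest fall at each time, and hold none of the letters. All are written 5′ to 3′ towards the start.

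Mcm6 (chr13:42404353-42404602, minus strand): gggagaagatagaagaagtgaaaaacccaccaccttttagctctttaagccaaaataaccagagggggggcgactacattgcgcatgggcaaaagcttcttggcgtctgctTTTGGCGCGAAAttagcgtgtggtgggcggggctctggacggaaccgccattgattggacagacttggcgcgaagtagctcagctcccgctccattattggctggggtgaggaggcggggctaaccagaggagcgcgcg
Pola1 (chrX:62342356-62342605, minus strand): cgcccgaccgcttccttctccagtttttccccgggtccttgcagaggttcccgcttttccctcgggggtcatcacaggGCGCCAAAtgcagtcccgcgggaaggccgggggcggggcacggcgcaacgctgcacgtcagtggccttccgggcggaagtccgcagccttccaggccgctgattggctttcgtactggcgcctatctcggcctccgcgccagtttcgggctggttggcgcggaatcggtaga
Orc6 (chr19:37938857-37939106, minus strand): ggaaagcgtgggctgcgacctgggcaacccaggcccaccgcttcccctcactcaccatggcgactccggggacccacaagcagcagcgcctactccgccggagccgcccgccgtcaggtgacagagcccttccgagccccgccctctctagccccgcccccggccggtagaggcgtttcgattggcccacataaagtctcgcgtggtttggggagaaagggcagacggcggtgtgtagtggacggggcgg
Pola2 (chr1:212680543-212680792, minus strand): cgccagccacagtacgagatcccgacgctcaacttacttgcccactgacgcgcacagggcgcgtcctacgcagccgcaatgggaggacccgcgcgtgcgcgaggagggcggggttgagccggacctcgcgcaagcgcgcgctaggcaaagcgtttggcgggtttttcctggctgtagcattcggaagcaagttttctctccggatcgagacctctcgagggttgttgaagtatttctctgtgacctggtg
Cdt1 (chr19:67528999-67529248, plus strand): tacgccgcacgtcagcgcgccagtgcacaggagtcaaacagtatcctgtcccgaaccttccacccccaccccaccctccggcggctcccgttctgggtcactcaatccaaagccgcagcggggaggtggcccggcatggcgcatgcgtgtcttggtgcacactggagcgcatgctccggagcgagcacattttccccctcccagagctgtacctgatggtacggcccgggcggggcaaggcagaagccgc
Rrm1 (chr1:166235654-166235903, plus strand): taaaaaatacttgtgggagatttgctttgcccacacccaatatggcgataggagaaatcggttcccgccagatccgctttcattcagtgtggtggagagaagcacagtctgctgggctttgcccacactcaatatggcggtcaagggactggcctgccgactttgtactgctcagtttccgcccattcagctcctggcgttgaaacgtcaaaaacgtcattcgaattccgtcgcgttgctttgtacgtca

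In Mcm6, TTTGGCGC on the printed strand begins 139 bases before the start and overlaps TTTCGCGC on the other strand. In Pola1, TTTGGCGC lies on the strand opposite to the printed one, and the match begins 172 bases before the start.

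The 3 D-type cyclins, which carry the growth factor signal to Cdk4 and Cdk6, each followed a course of their own. Ccnd1 did not pass the test at 4 h and was higher with EGF at 12 h. Ccnd3 was lower at both times. Ccnd2 passed at neither.

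Ccnd1 (probe set 1383075_at) read 21006, 23618 and 29888 units in the controls of 4 h and 20119.6, 24788 and 34107 with EGF. At 12 h its controls read 7878.5, 10849 and 9288, and the EGF arrays 19107, 21388.5 and 22789. The groups overlap at 4 h, and at 12 h every EGF array is above every control. The log2 fold change was 0.07 ± 0.19 (standard error, SE; adjusted p = 0.839) at 4 h and 1.18 ± 0.19 (adjusted p = 0.000342) at 12 h. On its other probe sets the 12 h values were 1.43 ± 0.14 and 1.36 ± 0.15. The 12 h controls of Ccnd1 were all below the 4 h controls, but the arrays of the 2 experiments also differ in their control-probe signals, and a difference in level between experiments cannot be told apart from the array set.

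Ccnd3 (1369935_at) read 11329, 11380.4 and 7111 in the 4 h controls and 5788, 6471 and 4181 with EGF, then 10416, 12315 and 10084 in the 12 h controls and 4350.3, 6038 and 7169 with EGF. No EGF array reached its controls at either time. The fall was -0.85 ± 0.23 at 4 h (adjusted p = 0.0127) and -0.92 ± 0.23 at 12 h (adjusted p = 0.00586). The call at 4 h was lost after median centring (adjusted p = 0.0849), without control replicate 1 (0.0588), control replicate 2 (0.0593) or EGF replicate 3 at 4 h (0.0572), and the 12 h call held in all 25 alternatives.

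Ccnd2 (1370810_at) read 2473, 2475 and 2313 in the controls and 2025, 2047 and 2475 with EGF at 4 h, and 3559, 4764 and 3023 against 3319, 3053 and 2303 at 12 h. The groups overlap at both times. Its values were -0.15 ± 0.18 (adjusted p = 0.583) and -0.38 ± 0.18 (adjusted p = 0.125).

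The E-type cyclins, partners of Cdk2 at the entry into S phase, were less clear. Ccne2 went from 432 ± 109 to 238 ± 89.5 units at 4 h (SD, n = 3), a log2 fold change of -0.83 ± 0.29 (adjusted p = 0.0458). That call was lost in 13 of 24 alternatives, with adjusted p from 0.0524 to 0.179, and its other probe set gave 0.50 ± 0.26 (adjusted p = 0.181) in the opposite direction. Ccne1 gave 0.11 ± 0.20 at 4 h and 0.39 ± 0.20 at 12 h (adjusted p = 0.73 and 0.153).

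Of the kinases, Cdk4 gave -0.11 ± 0.18 and 0.20 ± 0.18, with EGF replicate 3 at 12 h reading 19627 against 10684 and 12523 on the other EGF arrays. Cdk2 varied most, since its probe set (1394320_at) read 384, 53.9 and 1494 on the EGF arrays of 12 h. Its SE was 0.72, and the other Cdk2 probe set gave 0.87 ± 0.31 at 12 h (adjusted p = 0.0431). Cdk6 was below the limit in every group mean, from 64.2 to 190.03 units. E2f1, which encodes an activating E2F factor, went from 827 ± 163 to 416 ± 137 at 4 h, a fall of -0.98 ± 0.26 (adjusted p = 0.0127), and gave -0.41 ± 0.26 at 12 h (adjusted p = 0.242). Without EGF replicate 2 or control replicate 2 at 4 h the adjusted p of E2f1 was 0.0622 and 0.0593.

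**Figure D3:**
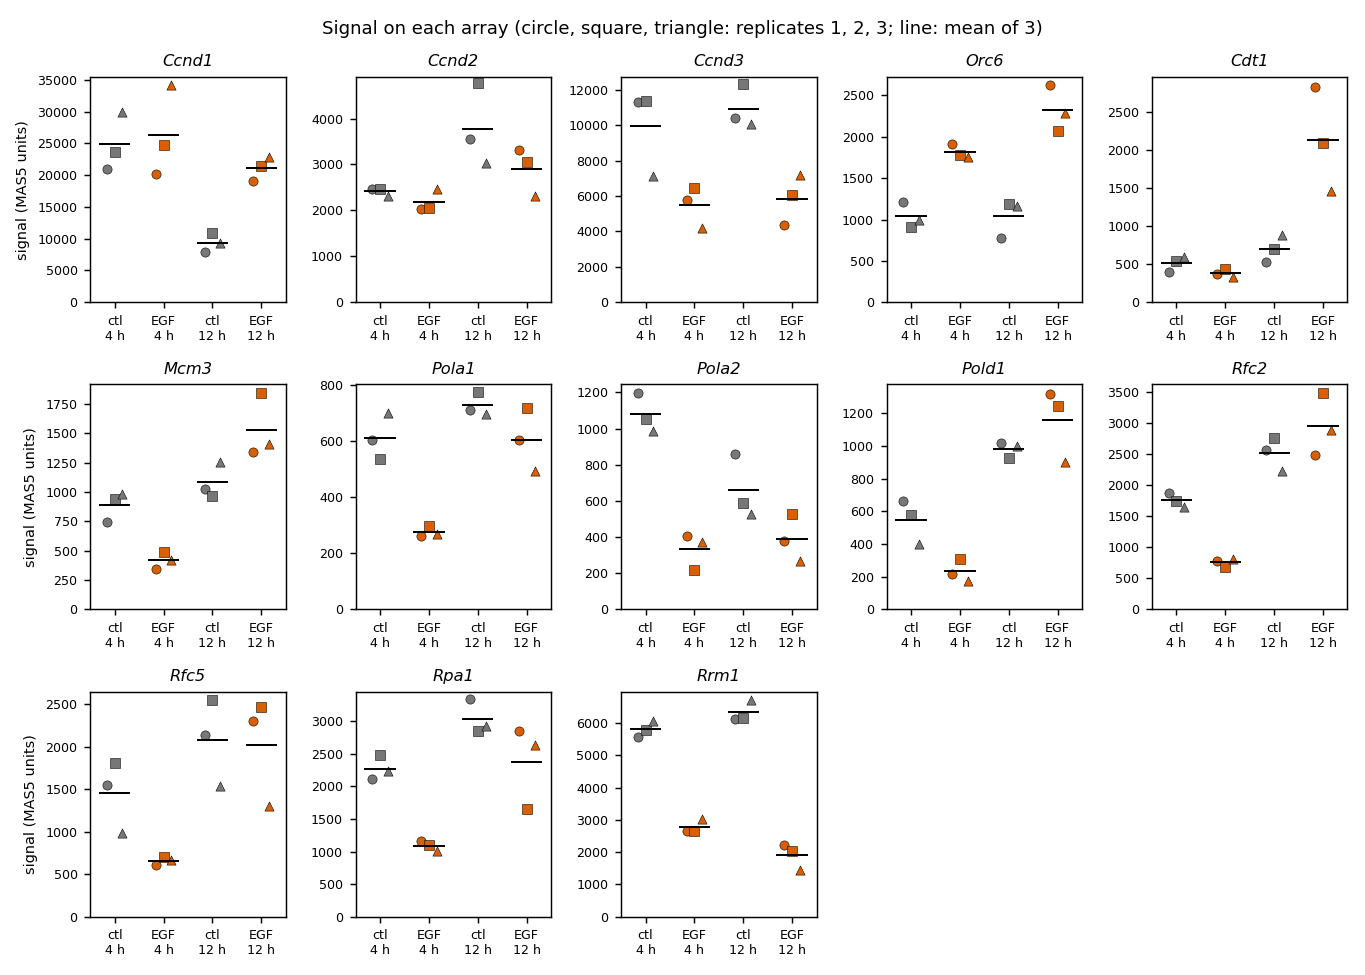
Signal of each array in MAS5 units, on axes from 0, for the 3 D-type cyclins and the 10 other genes that passed a test and changed at least 2-fold at 4 h or 12 h. Controls are grey and EGF arrays orange, symbols mark replicates 1, 2 and 3, and lines are means of 3. Orc6 is higher with EGF at both times, Cdt1 and Ccnd1 are separated from their controls at 12 h, and Rrm1 is lower at both times.

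Origin licensing held the largest called rise of the set at each time. Orc6, a subunit of the origin recognition complex, was higher at both times, and Cdt1, which helps load the helicase, was higher at 12 h. Neither of the other tested licensing genes was called.

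Orc6 (1376317_at) read 1217.5, 907 and 989 in the 4 h controls and 1912, 1779.5 and 1750.1 with EGF. At 12 h the controls read 776, 1182 and 1167 and the EGF arrays 2628, 2067 and 2285. No control array reached an EGF array at either time. The rise was 0.80 ± 0.19 at 4 h (adjusted p = 0.00603) and 1.16 ± 0.19 at 12 h (adjusted p = 0.000321), and both calls held in all 25 alternatives. On its other probe sets the values were 0.76 ± 0.36 and 0.91 ± 0.35 at 4 h, which did not pass (adjusted p = 0.138 and 0.0727), and 1.02 and 1.08 at 12 h, which did (0.0386 and 0.0294).

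Cdt1 (1377967_at) read 396, 539 and 601 in the 4 h controls and 373, 439 and 328 with EGF, so those groups overlap. At 12 h the controls read 532, 695 and 889 and the EGF arrays 2839, 2099.8 and 1463, with no overlap. The values were -0.40 ± 0.27 (adjusted p = 0.308) and 1.54 ± 0.27 (adjusted p = 0.000582). Gmnn, which encodes geminin, the inhibitor of Cdt1, gave -0.06 ± 0.48 and 0.71 ± 0.48 (adjusted p = 0.947 and 0.27). All 3 EGF arrays of Gmnn at 12 h, from 1121 to 1182, were above the controls, which spread from 513 to 894. Orc2, another subunit of the complex, gave 0.41 ± 0.15 at 4 h (adjusted p = 0.0576) and -0.26 ± 0.15 at 12 h (0.193). Orc1, with no group mean above 166.5 units, was not tested.

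The 6 MCM subunits, which form the ring of the replicative helicase, all had negative values at 4 h, under every alternative, and 5 of the 6 had positive values at 12 h. Mcm3 and Mcm4 fell at 4 h and Mcm6 rose at 12 h. The median over the 6 was -0.58 at 4 h and 0.44 at 12 h.

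Mcm3 (1372406_at) read 742, 941 and 984 in the 4 h controls and 349, 490.4 and 423 with EGF, and then 1023, 968 and 1259.6 in the 12 h controls and 1341.5, 1844 and 1411 with EGF. Its EGF arrays were below all controls at 4 h and above all controls at 12 h. The values were -1.04 ± 0.20 (adjusted p = 0.00187) and 0.49 ± 0.20 (adjusted p = 0.0776), so the rise at 12 h did not pass. Mcm6, whose promoter window held the paired match, went from 1675 ± 78.2 to 3415 ± 712 units at 12 h, a rise of 1.00 ± 0.16 (adjusted p = 0.000358), after -0.35 ± 0.16 at 4 h (adjusted p = 0.138). Mcm4 fell by 0.60 ± 0.17 at 4 h (adjusted p = 0.0148). That call was lost after median centring (adjusted p = 0.18), without the replicate 3 pair (0.0583), and without control replicate 1 (0.0533) or control replicate 2 (0.0521) at 4 h.

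The remaining helicase subunits passed at neither time. Mcm5 gave -0.96 ± 0.38 and 0.63 ± 0.38, with an error wider than that of the other subunits. Mcm2 gave -0.56 ± 0.25 and -0.04 ± 0.25, and Mcm7 -0.31 ± 0.18 and 0.37 ± 0.18. The adjusted p of these 3 subunits ran from 0.0802 to 0.913 over both times.

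Of the 5 genes that begin and extend new strands, 4 fell at 4 h, against 19.6% of all tested genes called lower. Of the 5 genes of the clamp and its loader 3 did, and no test was made between roles. Pola1 is the catalytic subunit of polymerase alpha and Pola2 its accessory subunit, Prim1 and Prim2 form the primase bound to them, and Pold1 is the catalytic subunit of polymerase delta. At 12 h 0 of the 5 passed.

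Pola2 (1387795_at), the largest fall of the set at 4 h, read 1196, 1054 and 987 in the controls and 407, 216 and 374 with EGF. At 12 h it read 862, 589.5 and 526 against 377, 531 and 268. The groups are apart at 4 h and overlap at 12 h. The values were -1.67 ± 0.30 (adjusted p = 0.001) and -0.73 ± 0.30 (adjusted p = 0.0705).

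Pola1 (1376611_at) read 604, 536 and 700.5 in the 4 h controls and 263.5, 296 and 268 with EGF. At 12 h its controls read 713.5, 778 and 699 and the EGF arrays 606, 719.8 and 493, which overlap. The fall at 4 h was -1.08 ± 0.21 (adjusted p = 0.00187), against -0.27 ± 0.21 at 12 h (0.336).

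Pold1 (1370127_at) read 663, 576 and 399.6 in the 4 h controls and 218, 308 and 175 with EGF, and 1017, 928 and 1002 against 1320.1, 1248 and 902 at 12 h. It fell by 1.15 ± 0.25 at 4 h (adjusted p = 0.0042), with no overlap, and gave 0.21 ± 0.25 at 12 h (0.545). Prim1 fell by 0.72 ± 0.21 at 4 h (adjusted p = 0.0191), from 2029 ± 90.6 to 1252 ± 325 units. The Prim1 call did not hold after median centring (adjusted p = 0.0612), without EGF replicate 1 (0.0889), EGF replicate 2 (0.066), control replicate 1 (0.0538) or control replicate 3 (0.0565) at 4 h. Prim2 gave -0.75 ± 0.37 (adjusted p = 0.151).

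The sliding clamp was not called at 4 h, while some subunits of its loader were, and no test was made between these genes. Pcna, the ring that holds the polymerases on DNA, gave -0.09 ± 0.12 at 4 h and 0.10 ± 0.12 at 12 h (adjusted p = 0.63 and 0.552), from 8462 ± 574 to 7927 ± 296 units at 4 h. Its 4 h value was positive after median centring. Of the 4 loader subunits in the set, which open the ring and set it on DNA, Rfc2, Rfc3 and Rfc5 fell at 4 h. A further subunit outside the set, Rfc1, is given with the other replication genes.

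Rfc2 (1370910_at) read 1865.5, 1738.5 and 1650.0 in the 4 h controls and 783, 679 and 818 with EGF. At 12 h it read 2556, 2751 and 2223 against 2482, 3476 and 2884. The 4 h groups lie far apart for their spread and the 12 h groups overlap. The fall at 4 h was -1.18 ± 0.16 (adjusted p = 0.000108), the lowest adjusted p of the set at that time, and the 12 h value was 0.22 ± 0.16 (0.298).

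Rfc5 (1392589_at) read 1549, 1808 and 989.8 in the 4 h controls and 606, 697 and 666 with EGF, and 2132.5, 2549 and 1536 against 2298, 2461 and 1307 at 12 h. It fell by 1.07 ± 0.27 at 4 h (adjusted p = 0.01) and gave -0.06 ± 0.27 at 12 h (0.89). The other Rfc5 probe set fell by 0.76 ± 0.25 at 4 h (adjusted p = 0.0373), and without control replicate 2 at 4 h the adjusted p of the first was 0.0517. Rfc3 fell by 0.98 ± 0.26 at 4 h (adjusted p = 0.0129), which did not pass without EGF replicate 2 (0.064) or control replicate 2 (0.0559) at 4 h. Rfc4 gave -0.42 ± 0.17 (adjusted p = 0.0765).

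Among the genes that finish and protect new strands, Rpa1 was called lower at 4 h and Rpa2 higher at 12 h. Both encode subunits of the same single-strand binding complex. At 4 h both had negative values, with all EGF arrays below all controls. Rpa1 (1372181_at) read 2113, 2479.7 and 2235 in the 4 h controls and 1163, 1098 and 1011 with EGF. At 12 h it read 3340.5, 2850.0 and 2931 against 2859, 1657 and 2635. It fell by 1.04 ± 0.19 at 4 h (adjusted p = 0.00101), with no overlap, and gave -0.38 ± 0.19 at 12 h (0.127). Rpa2 gave -0.66 ± 0.25 at 4 h (adjusted p = 0.0646) and 0.81 ± 0.25 at 12 h (0.0216), where its EGF arrays read 783, 778 and 1287 against controls of 427 to 665. The 12 h call of Rpa2 was lost in 6 of 25 alternatives. Among them, without EGF replicate 3 at 12 h the value was 0.57 (adjusted p = 0.0734). The block for array set gave the same value (adjusted p = 0.0563). That array is alone in its set, so these are not separate checks at 12 h. The call was also lost without control replicate 2 (0.088) or control replicate 3 (0.067) at 12 h. Fen1, the flap nuclease, gave -0.66 ± 0.32 and 0.12 ± 0.32, and Lig1, the ligase that joins Okazaki fragments, -0.56 ± 0.20 and -0.44 ± 0.20. Neither passed, with adjusted p of 0.146 and 0.794 for Fen1 and 0.0584 and 0.108 for Lig1.

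Rrm1 stood out among the genes of nucleotide supply. It encodes the large subunit of ribonucleotide reductase, which turns ribonucleotides into the deoxyribonucleotides used in DNA. Rrm1 (1371862_at) read 5565, 5785 and 6079.5 in the 4 h controls and 2674, 2651 and 3033 with EGF, and 6117.5, 6174 and 6718 against 2216, 2038 and 1464 at 12 h. The arrays of the 2 treatments do not overlap at either time. The fall was -1.06 ± 0.15 at 4 h (adjusted p = 0.000173) and -1.74 ± 0.15 at 12 h (adjusted p = 1.39e-06), the lowest adjusted p of the set, and both calls held in all 25 alternatives. The difference between the times was -0.69 ± 0.21 (adjusted p = 0.0544).

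The other enzymes of this group passed at neither time. Tyms, thymidylate synthase, gave -0.70 ± 0.34 and -0.08 ± 0.34, and Tk1, thymidine kinase, -0.62 ± 0.27 and -0.33 ± 0.27. Dut, which removes dUTP, gave -0.08 ± 0.14 and 0.37 ± 0.14 (adjusted p = 0.0542 at 12 h), with all EGF arrays of 12 h, from 5934 to 7433, above the controls, from 4846.5 to 5814. Slbp, which binds the stem-loop of histone mRNA, gave -0.41 ± 0.22 and 0.28 ± 0.22. Uhrf1, needed to keep DNA methylation through replication, was below the limit for testing, with group means from 166 to 229.

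A test of the change of the EGF effect between the experiments called 10 of the 37 genes, all more positive at 12 h than at 4 h. They were Ccnd1, Cdt1, Mcm3, Mcm4, Mcm6, Prim1, Pold1, Rfc2, Rfc3 and Rpa2. In this comparison 11.6% of probe sets and 14.0% of tested genes were called, 6.55% of genes more positive at 12 h and 7.45% more negative. The median difference was 0.69 for the 37 genes and 0.04 for all tested genes, and the comparison uses the same control arrays as the tests at each time. Among the 10 called genes the largest differences were those of Cdt1 (1.94 ± 0.38, adjusted p = 0.00581), Mcm3 (1.52 ± 0.29, 0.00437), Rpa2 (1.47 ± 0.35, 0.0166) and Rfc2 (1.40 ± 0.22, 0.00149). Mcm5, not called, gave 1.59 ± 0.54 (adjusted p = 0.0781). Of the 10 called genes, Mcm3, Mcm4, Prim1, Pold1, Rfc2 and Rfc3 had been called lower at 4 h. The others, Ccnd1, Cdt1, Mcm6 and Rpa2, had been called higher at 12 h.

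The calls of Cdt1, Mcm3, Mcm6, Rfc2 and Rpa2 for this difference held in all 24 alternatives, and those of Prim1, Pold1 and Rfc3 were lost in 11, 10 and 13. With the replicate number as a block the difference of Rfc3 did not pass (adjusted p = 0.0685) and those of Mcm7 (0.0421) and Rfc5 (0.0452) did. Without control replicate 1 at 12 h, 6 genes were called and Ccnd1 was not among them (adjusted p = 0.056). After median centring 6 were called, and without the replicate 3 pair at 4 h and EGF replicate 3 at 12 h 17 were, 15 more positive and 2 more negative. Of all probe sets, 3.02% were more positive and 5.98% more negative after median centring, and 9.61% and 9.39% with those arrays left out.

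**Figure D4:**
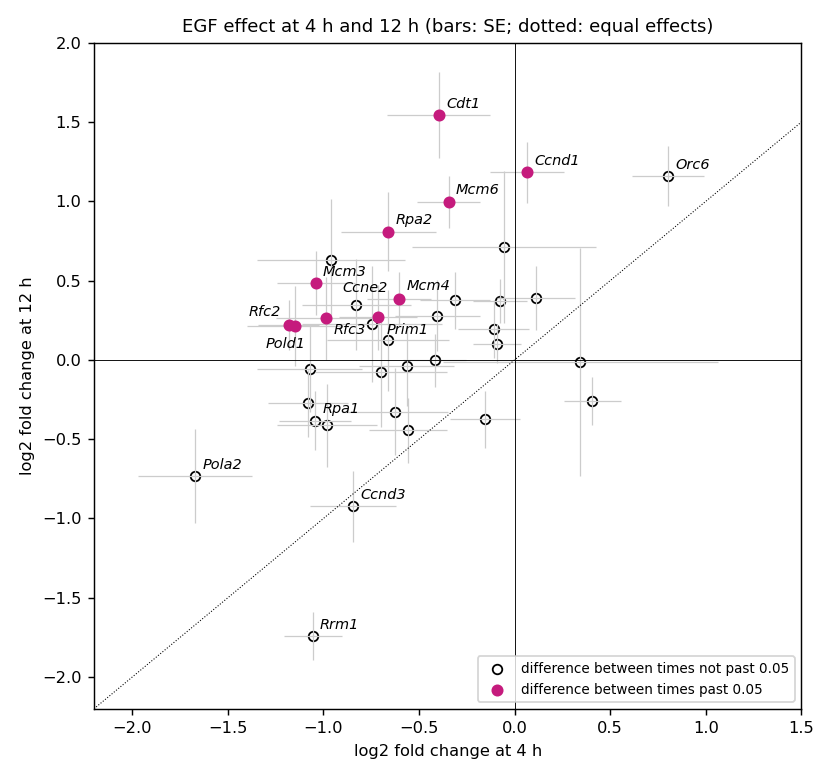
Log2 fold change of EGF against control at 12 h plotted against that at 4 h for the 37 tested genes, with bars of 1 standard error and a dotted line of equal effects. The 10 magenta points, whose effects differed between the times, all lie above the dotted line, and Rrm1 lies lowest, at -1.74 for 12 h.

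The arrays were not uniform, which bears on these values. The replicate 3 pair at 4 h had hybridisation control signals of 25060 and 27550, against 41.93 to 134.5 on the other arrays. The ratio of actin signal near the 3′ end to that near the 5′ end, which rises when the target covers less of a transcript, was 11.1 to 21.7 on 5 of the 12 h arrays. It was 1.24 on the remaining 12 h array, EGF replicate 3, and at most 1.61 on the 4 h arrays. Its part in the results was not tested beyond the values that follow. When these array sets entered the model as a block, 26 of the 37 genes were called at 4 h (2 higher, 24 lower) and 9 at 12 h (6 higher, 3 lower), while of all probe sets 16.66% were called higher and 26.63% lower at 4 h, and 18.49% higher and 24.16% lower at 12 h. Without the replicate 3 pair, 14 genes were called at 4 h, against 8.96% of all probe sets higher and 11.32% lower. Without EGF replicate 3 at 12 h, 8 were called at 12 h, against 15.73% higher and 20.84% lower.

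The marker genes of other cells moved with EGF as well, and their part in the results was not tested. The summed signal of 10 astrocyte markers ran from 68351 to 74918 in the 4 h controls and from 68310 to 74225 with EGF, and from 77697 to 86472 and from 78034 to 120305.5 at 12 h. Of these markers, Gfap, Aqp4, Slc1a2, Aldh1l1 and Pax2 were below the limit for testing, and of the 5 tested, 0 were called at 4 h and 2, Glul and Aldoc, were lower at 12 h (-1.28 and -5.64). The summed signal of the 6 fibroblast and meningeal markers ran from 143531 to 173751 in the 4 h controls and from 129587 to 137608 with EGF, and from 107427 to 139154 and from 55489 to 112387 at 12 h. Of these 6, 1 was lower at 4 h and 4 at 12 h. The sum of 7 oligodendrocyte lineage markers ran from 6203 to 6459 against 3725.5 to 4349 at 4 h and from 5906 to 6846 against 3067 to 3381 at 12 h, with Sox10, Olig2 and Mog below the limit. Of the 4 tested, 0 were higher and 2 lower at 4 h (Mbp and Pdgfra), and 1 was higher (Cspg4) and the same 2 lower at 12 h. All 5 neuronal markers were below the limit, as were the microglial markers Itgam, Ptprc, C1qa and C1qb. The sum of the 7 microglial and macrophage markers was 921 to 1241 against 713 to 1020.1 at 4 h and 716 to 840.5 against 1367 to 2210 at 12 h. Of the 3 tested, 0 were called at 4 h and 1 at 12 h, where Cd68 rose by 3.70 and Csf1r and Aif1 gave 0.42 and -0.05. The sum of 4 endothelial markers, of which Tek alone was tested, was 2599 to 2993 against 1152 to 1545 at 4 h and 2432 to 2982 against 1030.4 to 1587 at 12 h. The sum of 3 Schwann cell markers was 17739 to 19381 against 27662 to 29228 at 4 h and 9442 to 11912 against 7898 to 10297 at 12 h. Of these, Egr2, which is also a growth factor response gene, was higher at 4 h (2.82) and 12 h (1.18), while Prx and Pmp22 gave -0.38 and 0.18 at 4 h, not called, and were lower at 12 h (-0.74 and -0.50).

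Other genes of the same pathways were followed from lists. Of 33 further replication genes, 1 was higher and 9 lower at 4 h, and 2 higher and 6 lower at 12 h. Over all tested genes the shares were 12.8% higher and 19.6% lower at 4 h, and 16.5% and 24.2% at 12 h. Of the 33 genes, 30.3% were called at 4 h and 24.2% at 12 h, against 32.4% and 40.8% of all tested genes. At 4 h, median centring gave 2 higher and 4 lower and the block for array set 2 higher and 14 lower. Of all probe sets, median centring called 14.29% higher and 8.1% lower, and the block 16.66% and 26.63%. With the replicate 3 pair of 4 h left out, 1 was higher and 5 lower at 4 h, and without control replicate 3 at 12 h 1 was higher and 4 lower at 12 h. The shares of all probe sets were 8.96% higher and 11.32% lower in the first case, and 12.02% and 16.68% in the second. The falls at 4 h included Timeless, of the fork protection complex (270.3 ± 134 against 31.3 ± 30.6 units, SD, n = 3, with no fold given since the EGF arrays read near the offset of 24.4), Topbp1, a checkpoint scaffold (-1.01 ± 0.17), and Rfc1, the large subunit of the clamp loader (-0.94 ± 0.19). Rfc1 was also lower at 12 h (-0.57 ± 0.19, adjusted p = 0.035). Rpa3, the small subunit beside Rpa1 and Rpa2, was lower at 4 h (-0.48 ± 0.16, adjusted p = 0.0378) and higher at 12 h (0.95 ± 0.16, adjusted p = 0.000437). Orc4 was lower at both times (-0.64 ± 0.15 and -1.43 ± 0.15), opposite to Orc6 of the same complex. Top1, topoisomerase I, was higher at 4 h (0.52 ± 0.11) and lower at 12 h (-0.54 ± 0.11).

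Of 11 other genes of nucleotide supply, 2 were higher and 1 lower at 4 h, and 5 higher and 1 lower at 12 h. The called shares were 27.3% and 54.5%, against 32.4% and 40.8% of all tested genes. Nme1, a nucleoside diphosphate kinase, rose from 3529.5 to 14362 units at 12 h (2.02 ± 0.12, adjusted p = 3.91e-08), with Nme2, a close paralog of it (1.39 ± 0.21), and Cad, which starts pyrimidine synthesis (0.94 ± 0.17). Dck, deoxycytidine kinase, fell from 645 to 309 units at 4 h (adjusted p = 0.00609). Without the replicate 3 pair at 4 h, 0 of the 11 were called at 4 h, against 8.96% of all probe sets higher and 11.32% lower. Leaving out EGF replicate 3 of 12 h gave 2 higher and 3 lower at 4 h, and 6 higher and 1 lower at 12 h. It called 14.48% of all probe sets higher and 22.45% lower at 4 h, and 15.73% and 20.84% at 12 h. At 12 h, without control replicate 1, control replicate 3 or EGF replicate 2, 3 were higher and 0 lower. In these 3 settings 12.19%, 12.02% and 14.24% of all probe sets were higher and 16.45%, 16.68% and 18.86% lower.

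In the retinoblastoma and E2F family, 3 of 9 tested genes were higher and 3 lower at 4 h, and 0 higher and 4 lower at 12 h. The called shares were 66.7% and 44.4%, against 32.4% and 40.8% of all tested genes. Without EGF replicate 3 at 12 h, and likewise with the block for array set, which sets that array apart, 2 were higher and 3 lower at 12 h. Of all probe sets, 15.73% were higher and 20.84% lower without that array, and 18.49% and 24.16% with the block. Tfdp2, a dimerisation partner of E2F factors, fell at both times (-1.84 ± 0.15 and -1.77 ± 0.15), as did Rbl2, which encodes the pocket protein p130 (-1.23 ± 0.15 and -0.89 ± 0.15). E2f4 and E2f5, the factors that act with the pocket proteins as repressors, were higher at 4 h, both by 0.84 ± 0.15. Rb1 fell at 12 h (-1.31 ± 0.23, adjusted p = 0.000621).

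Of 13 inhibitors of cyclin-dependent kinases and regulators of G1, 3 were higher and 3 lower at each time. The called share was 46.2% at each time, against 32.4% of all tested genes at 4 h and 40.8% at 12 h. After median centring 4 were higher and 1 lower at 4 h, and with the block for array set 5 were higher and 6 lower at 4 h. Of all probe sets, 14.29% were higher and 8.1% lower at 4 h after median centring, and 16.66% and 26.63% with that block. Myc, a growth factor target that promotes cell growth, rose by 2.33 ± 0.16 at 4 h and 1.33 ± 0.16 at 12 h. Cdkn1b, which encodes the inhibitor p27, fell from 21279 to 8163 units at 4 h (-1.38 ± 0.13, adjusted p = 3.68e-06) and by 0.72 ± 0.13 at 12 h. Cdkn2c was lower at both times (-0.65 ± 0.14 and -0.63 ± 0.14).

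Of 20 genes of late S phase, G2 and mitosis, 6 were lower at 4 h and 13 at 12 h, and 0 were higher at either time. The lower shares were 30% and 65%, against 19.6% and 24.2% of all tested genes. Without control replicate 1 at 4 h, 3 were called at 4 h, and after median centring or quantile normalization 2 were, all lower. Under these settings 12.11%, 8.1% and 14.52% of all probe sets were called lower at 4 h. Their median was -0.64 at 4 h and -1.02 at 12 h. Ect2 fell by 1.38 ± 0.26 and 2.27 ± 0.26, and Mki67, a marker of cycling cells, by 1.03 ± 0.28 and 1.26 ± 0.28. For the difference between the times 0 of the 20 were more positive at 12 h and 1, Nusap1, was more negative (-1.40, adjusted p = 0.00731), or 2 without EGF replicate 1 or EGF replicate 2 at 12 h. Of all tested genes, 6.55% were more positive and 7.45% more negative. No test was made between the lists.

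**Figure D5:**
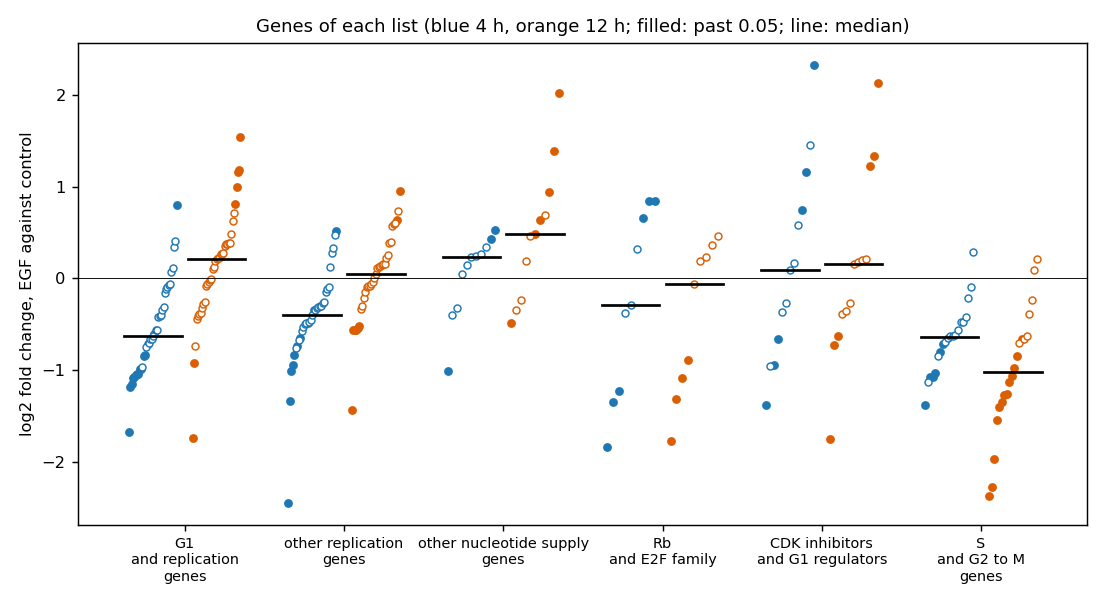
Log2 fold change of EGF against control for the tested genes of the G1 and replication set and of 5 further lists, at 4 h (blue) and 12 h (orange), with genes of a list ordered by value, filled points past an adjusted p of 0.05 and lines at the medians. The medians are -0.62 and 0.21 for the G1 and replication genes and -0.64 and -1.02 for the S and G2 to M genes.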

How the data were processed

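RNA of the cultures was labelled with biotin and read on Affymetrix rat arrays, 3 per group. The deposited values are intensity signals that the authors computed with MAS5, per the submitters' processing notes, whose version is not given in the sources used here. As 2% trimmed means of all arrays lay between 1498.99 and 1499.89, no rescaling was applied. Of 31099 probe sets, 57 control probe sets and 12417 with a mean signal under 215 (the 40th percentile) were left out, and 18625 were tested. Values were taken as log2(signal + 24.4), the offset being the 10th percentile of all signals, so fold changes of low genes are understated. limma 3.58.1 (R 4.3.3) fitted 4 group means with an intensity trend and 8 residual degrees of freedom. Contrasts were EGF against control at 4 h, at 12 h, and the difference of these effects, with Benjamini-Hochberg adjustment over all tested probe sets and a threshold of 0.05. The script was tested on simulated data.

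Gene names came from the platform annotation: 20832 probe sets had 1 symbol, 436 several and 9831 none, and those with several were not used. A gene is given by its probe set with the highest mean signal; 2944 genes had several tested probe sets. Values on every array are given for the D-type cyclins and for genes that passed at 4 h or 12 h with at least a 2-fold change; other genes are named by role. No column was left unused and no pair of arrays held identical values. Precision is limited by the number of arrays, with a median standard error over probe sets of 0.23 for an effect at 1 time. Members and gene lists were chosen with earlier results of these data known. Same-numbered EGF and control arrays at 4 h deviated together (r = 0.121, 0.15 and 0.376 over probe sets). The highest value is that of the replicate 3 pair, which also stood apart by its hybridisation control signals. The titles do not say whether same-numbered arrays are paired cultures. The main model left same-numbered arrays unpaired, and pairs entered only in the alternative with a replicate block. EGF replicate 1 with control replicate 2 gave 0.142 and EGF replicate 2 with control replicate 1 gave 0.138, so the values do not tell replicates 1 and 2 apart. At 12 h same-numbered arrays did not deviate together (0.083, -0.111 and -0.103). Alternatives changed the offset, filter, normalization, trend, arrays used, blocks and threshold. Figures were drawn with matplotlib 3.10.9.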

Additional observations from a re-analysis of the deposited data

Results flagged for a closer look

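For 10 genes the effect of EGF at 12 h differed from that at 4 h by a test of the difference itself (limma, adjusted p under 0.05), and each difference was positive. On the log2 scale the difference was 1.12 for Ccnd1, 1.94 for Cdt1, 1.52 for Mcm3, 0.99 for Mcm4 and 1.34 for Mcm6. It was 0.98 for Prim1, 1.36 for Pold1, 1.40 for Rfc2, 1.25 for Rfc3 and 1.47 for Rpa2. The arrays of the 4 h and 12 h experiments fall into different sets by their control-probe signals. The block for array set acts only within each time, since no set holds arrays of both. The part of a set difference between the experiments was therefore not tested.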

How the results depend on the processing

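Under the 25 alternatives, 0 of the member calls reversed. When array set entered as a block, 26 members were called at 4 h (2 higher, 24 lower) and 18 for the difference between the times (16 and 2), and over all probe sets 8063 in place of 5186 at 4 h and 4092 in place of 2153 for the difference. Median centring with that block gave 13 members at 12 h (11 and 2) and 3672 probe sets for the difference. At 12 h it called 22.44% of all probe sets higher and 18.18% lower. Median centring alone gave 6 members for the difference and moved the higher share of called probe sets at 4 h from 40.84% to 63.82%, and for the difference from 47.14% to 33.53%; with the block the share at 12 h went from 42.32% to 55.25%. An adjusted p under 0.01 left 8 members at 4 h and 4 for the difference. The share of all probe sets at that threshold was not counted, so these counts have no background beside them. Leaving out the replicate 3 pair at 4 h and EGF replicate 3 at 12 h, an alternative chosen after seeing the data, gave 17 members (15 and 2) and 3539 probe sets for the difference. Leaving out 1 array at a time gave 9 to 19 members at 4 h (lowest without control replicate 2 at 4 h, highest without EGF replicate 3 at 12 h), 6 to 9 at 12 h and 6 to 14 for the difference (lowest without control replicate 1 at 12 h, highest without EGF replicate 3 at 12 h). For all probe sets the difference ran from 1419, without control replicate 2 at 4 h, to 2955, without EGF replicate 3 at 12 h, with 1423 without control replicate 1 at 12 h. At 4 h, 9.01% of all probe sets were higher and 12.5% lower without control replicate 2 at 4 h. Without EGF replicate 3 at 12 h, 14.48% and 22.45% were. At 12 h the shares were 12.54% and 16.39% without control replicate 2 at 12 h, which gave 6 members. They were 16.82% and 22.08% without EGF replicate 1 at 12 h, which gave 9. The replicate block, the paired analysis, gave 15, 8 and 11 members at 4 h, at 12 h and for the difference. Over all probe sets it gave 5220, 6850 and 2044. It added Mcm7 at 12 h (adjusted p = 0.0461) and changed no call at 4 h. Signals near background limit Cdk6, Orc1 and Uhrf1, which were not tested.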
